A study of Arabidopsis thaliana with 12 samples.

Results

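The genes described here are 43 nuclear genes of Arabidopsis thaliana for subunits of the mitochondrial respiratory chain, out of 32743 genes in the count tables. They were taken by gene identifier from a list of nuclear subunits, with 21 genes for complex I, 5 for complex II, 3 for complex III, 5 for complex IV and 9 for the ATP synthase. All 43 were found in the tables, and all 43 passed the filter on low counts in every fit. RNA was sequenced from leaves of plants aged 35 days, either otp90 mutants, which carry a T-DNA insertion in the gene of the RNA editing protein OTP90, or the wild type (WT), ecotype Col-0. Each genotype was sampled as 2 kinds of extract that the labels call Mito and Total, without saying how the Mito extract was made, and each of the 4 groups (Mito otp90, Mito WT, Total otp90 and Total WT) held 3 replicates. The mutant was a single insertion line, and the labels do not say whether replicates came from separate plants, so p-values measure the spread between these libraries.

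The respiratory chain sits in the inner mitochondrial membrane, where complexes I to IV hand electrons from NADH and succinate to oxygen and the ATP synthase uses the resulting proton gradient. Complexes I, III and IV and the ATP synthase are built from subunits of both the nuclear and the mitochondrial genome, whereas complex II of Arabidopsis is encoded in the nucleus. Plant complex I carries an extra domain related to carbonic anhydrases, and the core subunits of plant complex III are also the mitochondrial processing peptidase, which removes targeting sequences from imported proteins.

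Several genes are called here by the human counterpart of the protein, with a number for each copy. The RefSeq symbols are CI51 for NDUFV1, EMB1467 for NDUFS1, FRO1 for NDUFS4, ATP3 for ATPgamma and ATP5 for OSCP.

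The sequences next to the start of these genes were examined for site II elements, short motifs known from promoters of plant respiratory and ribosomal genes, spelled TGGGCC or TGGGCT on either strand. In the 300 bases made of 250 before and 50 after the annotated start, 24 of the 43 genes (55.8%) had at least 1 match, against 5961 of 27443 protein-coding genes (21.7%). Matches were counted by position, so a palindromic stretch that holds the motif on both strands counts at 2 positions. By this count 21 of the 43 genes (48.8%) had 2 or more, against 13.7% of all protein-coding genes. The share differed by complex, with 13 of 21 genes for complex I, 0 of 5 for complex II, 3 of 3 for complex III, 2 of 5 for complex IV and 6 of 9 for the ATP synthase. The 120 bases before the annotated start are given for NDUFS1, MPPalpha-1 and COX6A, which differ in how their levels compare between extracts, and for ATPbeta-1 and ATPbeta-2, which encode the beta subunit of the ATP synthase. NDUFS1 had 4 matches in its 300 bases, of which 2 fall within the stretch given. The sequences are read in the direction of transcription, on build TAIR10.1, with motif matches in capitals.
NDUFS1, chr5:14897209-14897328, plus strand: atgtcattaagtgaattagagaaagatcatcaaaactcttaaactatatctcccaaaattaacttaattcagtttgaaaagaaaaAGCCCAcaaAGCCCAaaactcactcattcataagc
MPPalpha-1, chr1:19326919-19327038, minus strand: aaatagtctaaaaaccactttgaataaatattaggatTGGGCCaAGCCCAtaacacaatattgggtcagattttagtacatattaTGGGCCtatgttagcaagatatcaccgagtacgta
COX6A, chr4:17788835-17788954, minus strand: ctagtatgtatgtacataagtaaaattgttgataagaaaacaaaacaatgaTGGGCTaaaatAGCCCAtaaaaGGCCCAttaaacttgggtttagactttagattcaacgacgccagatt
ATPbeta-1, chr5:2821252-2821371, minus strand: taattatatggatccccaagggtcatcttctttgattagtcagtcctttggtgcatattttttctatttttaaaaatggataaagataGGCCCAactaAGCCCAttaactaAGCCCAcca
ATPbeta-2, chr5:2825541-2825660, plus strand: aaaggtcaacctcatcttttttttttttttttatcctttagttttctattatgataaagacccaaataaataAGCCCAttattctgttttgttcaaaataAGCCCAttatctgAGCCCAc
ATPbeta-1 and ATPbeta-2 each had 3 matches close to the start, whereas ATPbeta-3, the remaining gene of the beta subunit, had 0 in its 300 bases. All sequences given here hold matches, but COX5B-1 and COX5B-2 of complex IV, among others, had 0. A match is a stretch of letters and no measure of binding.

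Libraries held 24660745 to 32418348 counts in Mito and 49434596 to 60464017 in Total. Mitochondrial genes took 4.42% to 5.16% of counts in Mito otp90, 2.89% to 4.59% in Mito WT and 0.959% to 1.19% in Total. Plastid genes took 42.7% to 48.9% in Mito and 56.7% to 62.2% in Total. The lowest count of any of the 43 genes in any library was 112. OTP90 itself had 6 to 17 counts in Mito otp90 and 16 to 20 in Mito WT, and 6 to 10 in Total otp90 and 6 to 16 in Total WT, too few to check the labels. All 5 leaf markers looked at (RBCS1A, CAB2, CAB3, CA1 and RCA) were abundant in every library.

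Levels are given as CPM, counts scaled to a common library size, after TMM normalisation over the 12 libraries, a step that takes most genes to be equal, and per kilobase of exon where genes are compared with each other. On the scale per kilobase the levels ran from 3.83 ± 0.834 for SDH2-2 to 65.0 ± 5.09 for ATPbeta-2 (SD, n = 12 libraries of all groups). Subunits of the ATP synthase filled most of the top of this order. ATPbeta-2 and ATPbeta-1 (63.3 ± 5.49), which carry the catalytic sites, differed by less than their spread. They were followed by MPPbeta of complex III (54.6 ± 3.64), and by MGP1 (53.4 ± 8.97), ATPgamma (47.7 ± 8.99) and OSCP (44.2 ± 5.59) of the ATP synthase. These SDs include the difference between the extracts, and the order was not the same in each. MGP1 had 45.4 ± 2.502 in Mito otp90 and 45.3 ± 0.233 in Mito WT, below MPPbeta with 52.4 ± 0.821 in Mito otp90 and 52.5 ± 1.61 in Mito WT (SD, n = 3 each). In Total it had 58.3 ± 0.933 in otp90 and 64.7 ± 3.56 in WT, where MPPbeta had 55.1 ± 1.06 in otp90 and 58.5 ± 5.58 in WT.

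In the other complexes the highest levels per kilobase, averaged over all libraries, were those of COX6A in complex IV (38.4 ± 10, SD, n = 12), NDUFV1 in complex I (34.9 ± 1.66) and SDH3-1 in complex II (20.3 ± 2.80). In Mito, NDUFV1 and NDUFS1 were close, at 34.6 ± 0.28 and 34.6 ± 0.766 in otp90 and at 33.1 ± 1.83 and 34.5 ± 0.943 in WT (SD, n = 3 each). NDUFV1 holds the site where NADH is oxidised, and SDH3-1 is a membrane anchor of succinate dehydrogenase. The level of SDH3-1 is uncertain, because 91.9% of its 75-base windows occur elsewhere in the genome, and 61.4% in AT4G32210, its near copy SDH3-2, and reads with several best positions were counted at each. SDH2-1 overlapped a neighbour on the same strand, AT3G27360, over 656 of its 2648 exon bases.

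**Figure D1:**
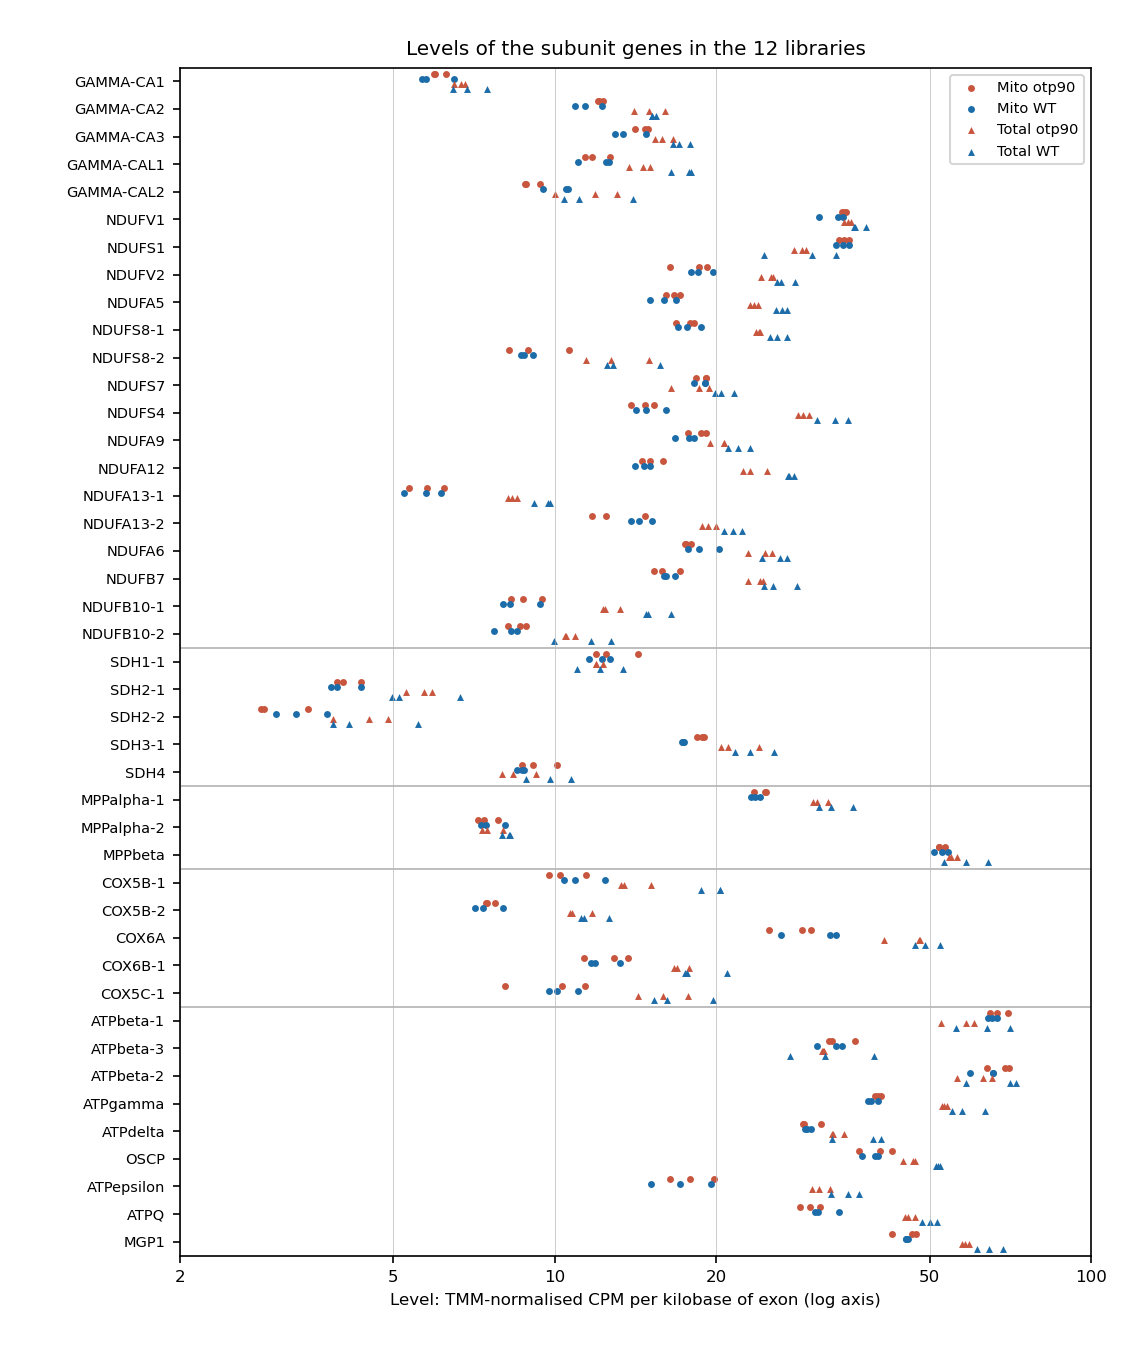
Level of each of the 43 subunit genes in the 12 libraries, in TMM-normalised CPM per kilobase of exon on a log axis, grouped from complex I at the top to the ATP synthase at the bottom. Circles are Mito and triangles Total libraries, red is otp90 and blue WT; genes differ from each other more than libraries do, from 3.83 for SDH2-2 to 65.0 for ATPbeta-2 on average.

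Summed over the genes of a complex, levels were close between genotypes in Mito. The 21 complex I genes summed to 471 ± 5.57 CPM in Mito otp90 and 466 ± 17.2 in Mito WT, and the 9 ATP synthase genes to 612 ± 17.4 in Mito otp90 and 595 ± 17.6 in Mito WT (SD, n = 3 each). In Total the complex I sum was 548 ± 9.66 CPM in otp90 and 592 ± 19.0 in WT. The complex IV sum was 103 ± 3.17 CPM in Total otp90 and 117 ± 6.998 in Total WT. COX5B-1 alone took 16.6 ± 1.19 CPM of it in Total otp90 and 23.5 ± 1.11 in Total WT. The other complex IV genes had log2 fold changes of otp90 over WT between -0.13 and -0.09 in Total. The ATP synthase sum was 647 ± 23.0 in Total otp90 and 711 ± 52.9 in Total WT. Its libraries overlapped, at 620.8 to 663.9 CPM in Total otp90 and 655.8 to 761.3 in Total WT. The sums for complex II were 102 ± 4.95 CPM in Total otp90 and 107 ± 11.1 in Total WT, a difference within the spread. Taken instead as a share of all nuclear counts, complexes I and IV overlapped between genotypes in Total. Complex I took 0.1162% to 0.1221% in Total otp90 and 0.1203% to 0.1436% in Total WT. Complex IV took 0.02163% to 0.02347% and 0.02256% to 0.02903%. All 43 genes took 0.3374%, 0.3545% and 0.3509% in Total otp90, and 0.3529%, 0.4333% and 0.3536% in Total WT, where replicate 2 stood out. In bulk RNA, fewer cells of a type and less RNA per cell cannot be told apart.

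The comparison of otp90 with WT asked whether loss of an editing factor for mitochondrial transcripts went with altered RNA levels of the nuclear partners. In Mito extracts, 0 of 43 genes passed the threshold (edgeR quasi-likelihood test, Benjamini-Hochberg adjusted p under 0.05), where 0.0604% of 16570 genes passed, 0.0422% higher and 0.0181% lower. By DESeq2 it was also 0 of 43, where 105 of all genes passed. An unadjusted edgeR p under 0.05 was seen for 1 of 43, against 6.96% of all genes. Log2 fold changes of otp90 over WT lay between -0.18 and 0.11 with a median of 0.03, against -0.01 for all nuclear genes tested. By complex the medians were 0.03 for complex I, 0.09 for II, 0.00 for III, -0.05 for IV and 0.04 for the ATP synthase.

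The smallest p in Mito belonged to GAMMA-CAL2 (AT3G48680, chromosome 3, 18034935 to 18037041), a carbonic anhydrase-like subunit of complex I. It had 11.4, 10.7 and 10.6 CPM in Mito otp90, against 11.5, 12.7 and 12.8 in Mito WT. The groups did not overlap, by a narrow margin. The difference was -0.18 on the log2 scale, with an SE of 0.0782 (edgeR adjusted p = 0.715). SDH3-1 (AT5G09600, chromosome 5, 2978825 to 2981096) came next, with 31.6, 31.3 and 30.7 CPM in Mito otp90 and 29.0, 28.9 and 28.8 in Mito WT. Its groups did not overlap either, and the difference was 0.11 on the log2 scale, with an SE of 0.06 (edgeR adjusted p = 0.753). Of the 43 genes, 1 was higher and 1 lower without overlap between groups, against 6.64% and 6.16% of all genes.

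In Total extracts, again 0 of 43 genes passed (edgeR quasi-likelihood test, adjusted p under 0.05), and 0% of 15373 genes did. By DESeq2 0 of 43 passed, and 4 of 43 had an unadjusted edgeR p under 0.05, against 2.98% of all genes. The differences nevertheless leaned to the same side. The log2 fold change of otp90 over WT was below 0 for 42 of 43 genes, with a median of -0.12 (quartiles -0.17 and -0.09), against a median of 0.00 over all nuclear genes tested, of which 49.5% were above 0. In 20 of 43 genes all Total otp90 libraries lay below all Total WT libraries, against 4.39% of all genes, and in 0 of 43 they all lay above, against 4.58%. Those 20 were 14 genes of complex I, 1 of complex IV and 5 of the ATP synthase.

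Scaled by library size alone, the count of genes without overlap below WT was again 20, against 7.05% of all genes. These counts come from the same 6 libraries, in which genes are no replicates, so they describe the libraries and are no test of genotype. Without Total WT replicate 2, which had the highest nuclear share of the Total libraries, 34 of 43 genes were below 0 with a median of -0.10, and the count without overlap was 24, against 14.1% of all genes. By complex the medians were -0.12 for complex I, -0.04 for II, -0.10 for III, -0.12 for IV and -0.15 for the ATP synthase. The other 46 nuclear subunits of the same complexes gave 0 calls among the 43 tested by edgeR and by DESeq2, 5 with an unadjusted p under 0.05, and a median of -0.16. The sum of the 5 leaf markers overlapped between the genotypes, at 18800 to 23700 CPM in Total otp90 and 18100 to 25900 in Total WT, and its part in the lean was not tested.

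The gene with the smallest p in Total was COX5B-1 (AT3G15640, chromosome 3, 5298991 to 5301745), a zinc-binding subunit on the matrix side of complex IV. It had 15.9, 17.9 and 15.8 CPM in Total otp90, against 24.1, 24.1 and 22.2 in Total WT. The groups were clearly apart, whereas in Mito they overlapped, at 11.6, 13.5 and 12.1 CPM in otp90 and 12.96, 14.7 and 12.3 in WT. The log2 fold change in Total was -0.51, with an SE of 0.11 (edgeR adjusted p = 0.9996). Over the alternative fits it ranged between -0.59 and -0.47, with adjusted p between 0.119 by DESeq2 and 0.9998. Its copy COX5B-2 had 12.6, 12.7 and 13.8 CPM in Total otp90 and 13.4, 14.9 and 13.2 in Total WT, which overlapped.

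NDUFB10-1 (AT3G18410, chromosome 3, 6323143 to 6324579), an accessory subunit of the membrane arm of complex I, had 15.8, 14.9 and 14.7 CPM in Total otp90 and 17.9, 19.8 and 17.7 in Total WT. All otp90 libraries were lower, by a log2 fold change of -0.29 with an SE of 0.102 (edgeR adjusted p = 0.9996). GAMMA-CAL1 and NDUFA12, at log2 fold changes of -0.27 and -0.23, were the remaining genes with an unadjusted p under 0.05. None of these differences held after adjustment over all genes by edgeR or DESeq2.

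**Figure D2:**
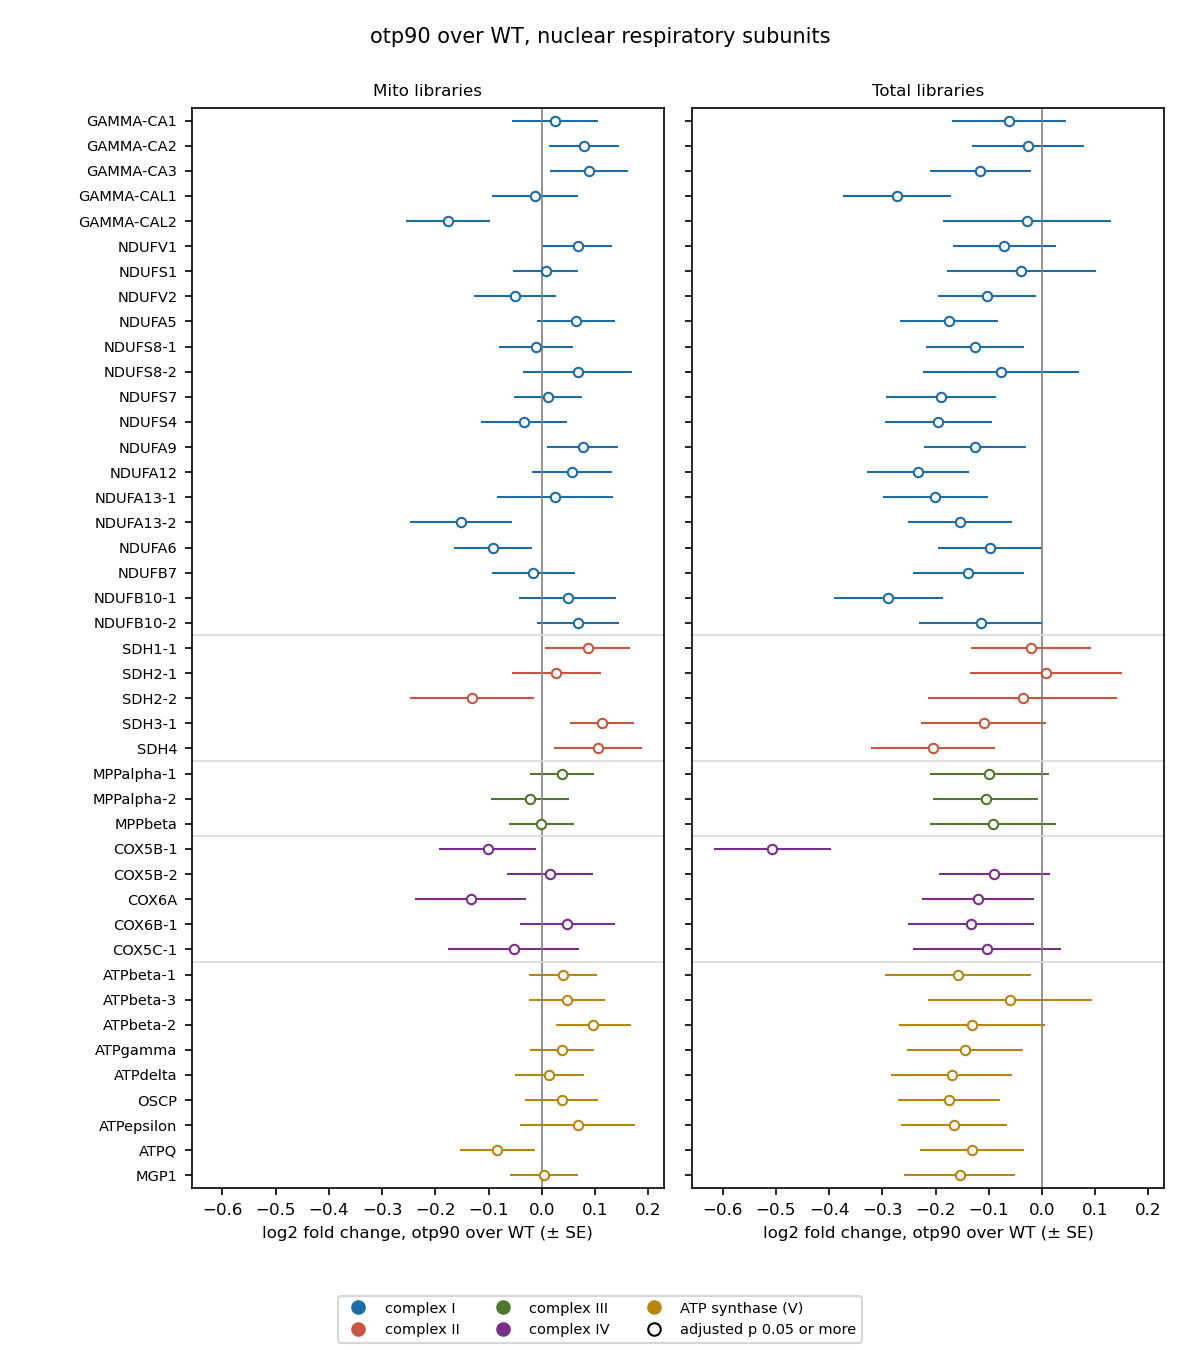
Log2 fold change of otp90 over WT for each of the 43 genes, with its standard error, in Mito libraries (left) and Total libraries (right), on the same axis. All symbols are open, since 0 of 43 genes had an adjusted p under 0.05 in either extract; in Mito the values scatter about 0, and in Total 42 of 43 lie below 0, with COX5B-1 at -0.51.

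The difference between the genotype effects of the extracts was tested as an interaction over all 12 libraries. No gene passed, with 0 of 43 and 0% of 16825 genes (edgeR quasi-likelihood test, Benjamini-Hochberg), and 0 of 43 by DESeq2. An unadjusted edgeR p under 0.05 was seen for 6 of 43, against 5.08% of all genes. The interaction was above 0 for 40 of 43 genes, against 50.8% of all nuclear genes tested, with a median of 0.15 against 0.00. It is the Mito effect minus the Total effect, so the lean in the same Total libraries enters this count. It was 0.41 for COX5B-1 with an SE of 0.14 (edgeR adjusted p = 0.930), 0.34 for NDUFB10-1 and 0.29 for NDUFA12. The effect of otp90 was therefore not shown to differ between Mito and Total for any of the 43 genes.

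The comparison of Mito with Total extracts gave the main contrast among these genes. In otp90, 26 of 43 genes were lower in Mito and 1 was higher (edgeR quasi-likelihood test, adjusted p under 0.05). Of 16337 genes, 47.1% passed, 22.3% lower and 24.8% higher. In WT, 30 of 43 genes were lower and 0 higher, and of 16436 genes 43.7% passed, 20.9% lower and 22.8% higher. The median log2 fold change of Mito over Total was -0.33 in otp90, against 0.02 over all nuclear genes tested, and -0.47 in WT, against 0.01. In 34 of 43 genes all Mito libraries lay below all Total libraries in otp90, against 30.2% of all genes, and likewise in 34 of 43 in WT, against 28.3%. In 3 of 43 genes all Mito libraries lay above in otp90, against 28.6%, and in 1 of 43 in WT, against 28.9%.

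These directions are relative to the scaling. With libraries scaled by their total counts alone, in which plastid RNA weighs heavily, 16 of 43 genes were higher and 2 lower in otp90, and 4 higher and 3 lower in WT. That scaling moved the median of all nuclear genes to 0.47 in otp90 and 0.48 in WT. Relative to that median, the median of the 43 genes was lower by nearly the same amount under either scaling. It stood at -0.35 with TMM and -0.35 with library size in otp90, and at -0.48 with TMM and -0.47 with library size in WT. A scale factor moves all genes of a library alike, so this agreement was fixed in advance and is no test. The changes described here are to be read as changes relative to other nuclear genes.

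The lists for otp90 and WT shared 24 genes that were lower in Mito, which is 92.3% of the otp90 list and 80% of the WT list. Among these, the call in otp90 held in 5 of 12 alternative fits for GAMMA-CA2 and in 7 of 12 for NDUFB10-2. GAMMA-CAL2 and SDH2-2 passed in otp90, and GAMMA-CA3, GAMMA-CAL1, NDUFA9, SDH3-1, ATPdelta and OSCP in WT, but the interaction above did not separate the genotypes for any of them. The call in otp90 held in 6 of 12 alternative fits for GAMMA-CAL2 and in 9 for SDH2-2. The call in WT held in 7 for NDUFA9, in 8 each for GAMMA-CA3 and SDH3-1, and in 11 for GAMMA-CAL1. ATPdelta and OSCP are treated below. The 10 genes that passed in neither were GAMMA-CA1, NDUFV1, NDUFS7, SDH1-1, SDH4, MPPalpha-2, MPPbeta and the 3 ATPbeta genes.

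**Figure D3:**
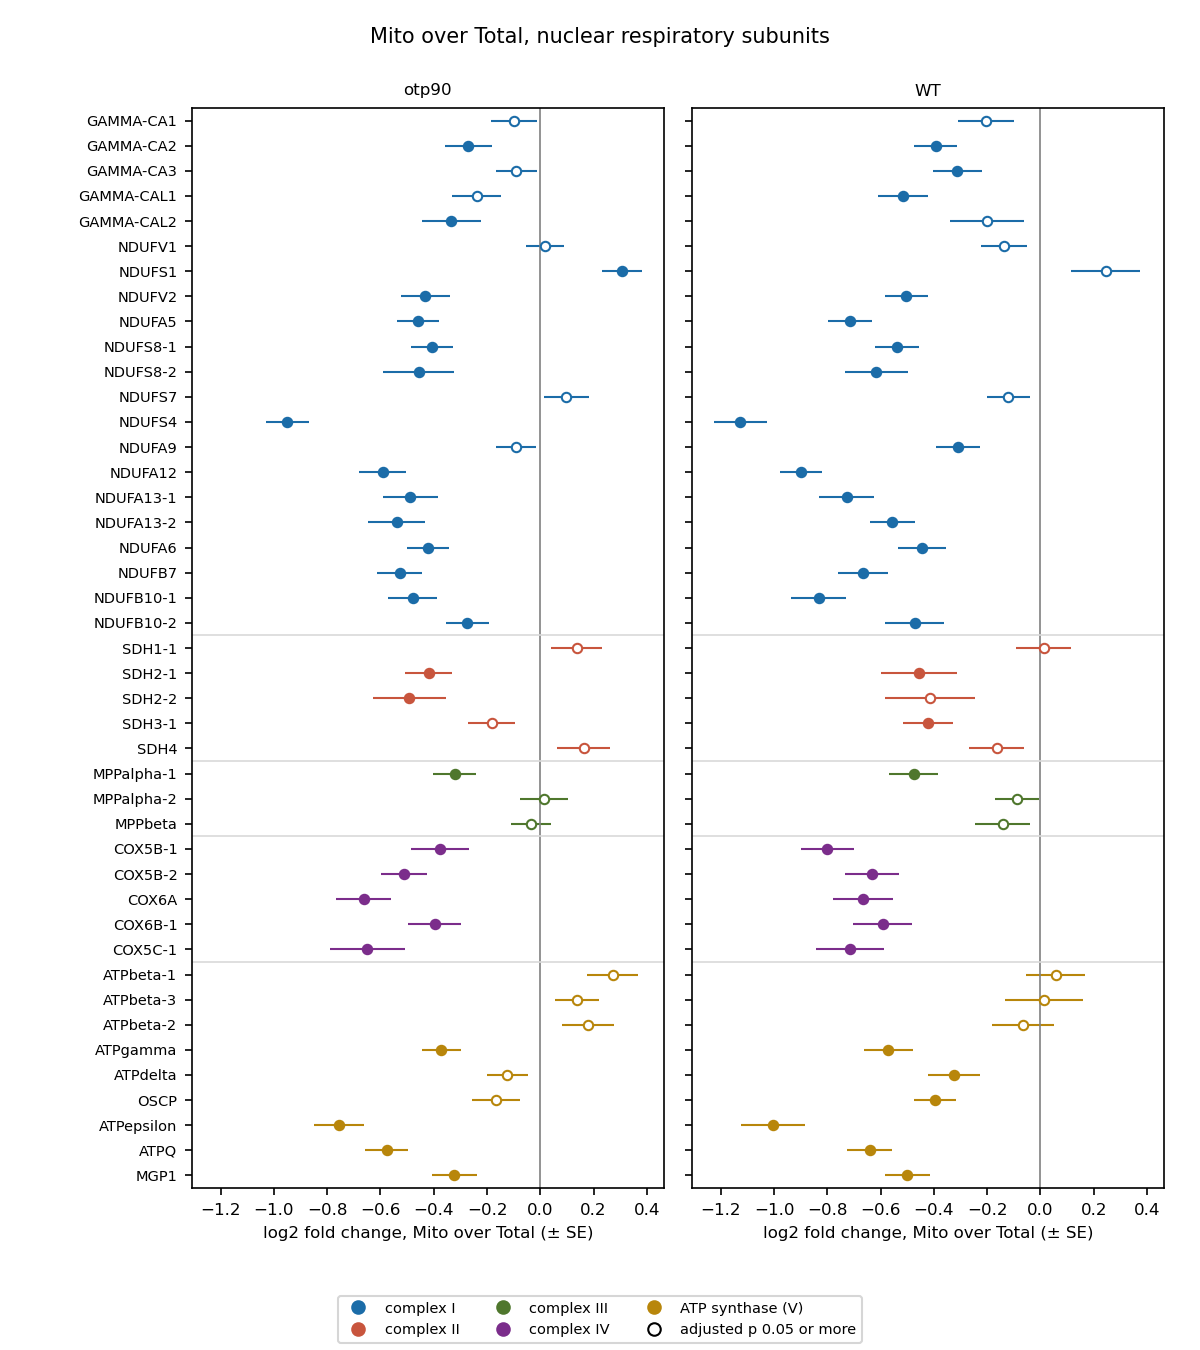
Log2 fold change of Mito over Total for each of the 43 genes, with its standard error, in otp90 (left) and WT (right), on the same axis. Filled symbols have an edgeR adjusted p under 0.05 and open symbols do not; most genes lie left of 0, all 5 genes of complex IV are filled in both genotypes, and NDUFS1 is the filled gene to the right of 0 in otp90.

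In complex I, 14 of 21 genes were lower and 1 higher in otp90, and 16 of 21 were lower in WT, with medians of -0.41 in otp90 and -0.50 in WT. The subunits of the arm that takes up electrons moved unequally. NDUFS1 (AT5G37510, chromosome 5, 14897329 to 14900693), the large iron-sulphur subunit whose upstream sequence is given above, had 92.8, 96.96 and 94.6 CPM in Mito otp90 and 79.0, 76.4 and 80.5 in Total otp90. It had 91.7, 96.9 and 94.6 CPM in Mito WT and 67.4, 91.5 and 82.7 in Total WT. Every Mito library was above the Total libraries of its genotype, narrowly so in WT. The log2 fold change was 0.31 in otp90 (SE 0.0751, edgeR quasi-likelihood adjusted p = 0.0131) and 0.24 in WT (SE 0.129, adjusted p = 0.169). The call in otp90 was lost without Total otp90 replicate 1 or replicate 2 (adjusted p = 0.0778 and 0.06), and WT passed without Total WT replicate 2.

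NDUFV1, which binds NADH and FMN, had 72.1, 70.9 and 71.6 CPM in Mito otp90 and 72.7, 71.4 and 73.6 in Total otp90, with overlap and a log2 difference of 0.02 with an SE of 0.0724 (edgeR adjusted p = 0.856). It had 64.1, 71.3 and 69.7 CPM in Mito WT and 74.5, 78.4 and 75.03 in Total WT, lower in every Mito library, with a log2 difference of -0.14 that did not pass (SE 0.0868, edgeR adjusted p = 0.241). NDUFV2, the smaller iron-sulphur subunit next to it, was lower in Mito in both genotypes, at -0.43 in otp90 and -0.50 in WT. The largest difference among the 43 genes was that of NDUFS4 (AT5G67590, chromosome 5, 26957915 to 26959557), an accessory subunit at the same arm. It had 12.6, 11.4 and 12.1 CPM in Mito otp90 and 24.5, 23.4 and 23.9 in Total otp90. In WT it had 11.7, 12.2 and 13.3 CPM in Mito and 27.5, 29.1 and 25.4 in Total. The extracts were far apart in both genotypes, with log2 fold changes of -0.95 in otp90 (SE 0.0813, edgeR quasi-likelihood adjusted p = 0.000193) and -1.13 in WT (SE 0.0998, adjusted p = 0.000573). The 5 carbonic anhydrase-type genes lay between -0.33 and -0.09 in otp90 and between -0.52 and -0.20 in WT.

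In complex II, 2 of 5 genes were lower in each genotype. SDH1-1 (AT5G66760, chromosome 5, 26653607 to 26657696), the flavoprotein that oxidises succinate, had 30.3, 36.4 and 31.7 CPM in Mito otp90 and 30.4, 30.3 and 31.3 in Total otp90. Its extracts overlapped, at log2 fold changes of 0.14 in otp90 and 0.01 in WT. SDH2-1 (AT3G27380, chromosome 3, 10129610 to 10132882), the iron-sulphur subunit, had 11.5, 10.4 and 10.7 CPM in Mito otp90 and 15.1, 13.98 and 15.7 in Total otp90, and 10.13, 11.5 and 10.4 in Mito WT and 13.6, 17.6 and 13.1 in Total WT. Mito libraries were lower in both genotypes, with log2 fold changes of -0.42 in otp90 (edgeR quasi-likelihood adjusted p = 0.00723) and -0.46 in WT (adjusted p = 0.038). The call in WT was lost without any of the 3 Mito WT replicates (adjusted p between 0.0864 and 0.147).

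In complex III, MPPalpha-1 (AT1G51980, chromosome 1, 19323055 to 19326918) was lower in Mito in both genotypes, whereas its copy MPPalpha-2 and the partner MPPbeta were not called. MPPalpha-1 had 54.0, 56.5 and 56.7 CPM in Mito otp90 and 69.6, 74.2 and 70.7 in Total otp90, and 54.2, 55.5 and 53.4 in Mito WT and 71.4, 82.5 and 75.2 in Total WT. The extracts did not overlap, with log2 fold changes of -0.32 in otp90 (SE 0.0809, edgeR quasi-likelihood adjusted p = 0.0151) and -0.48 in WT (SE 0.0921, adjusted p = 0.0068). The call in otp90 was lost without any of the 3 Mito otp90 replicates (adjusted p between 0.0641 and 0.0824). MPPalpha-2 had log2 fold changes of 0.01 in otp90 and -0.09 in WT, and MPPbeta of -0.03 in otp90 and -0.14 in WT.

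All 5 genes of complex IV were lower in Mito in both genotypes, with medians of -0.51 in otp90 and -0.67 in WT. COX6B-1 (AT1G22450, chromosome 1, 7925121 to 7927345) was the least different in WT, at -0.59 (SE 0.111, edgeR quasi-likelihood adjusted p = 0.00607), and COX5B-1 the most, at -0.80 (SE 0.1, adjusted p = 0.00138). In otp90, COX5B-1 stood at -0.38 (SE 0.108, adjusted p = 0.0249), a call lost without Mito otp90 replicate 1 or 3. As given above, its level in Total was lower in otp90 than in WT by a difference that did not pass, while its levels in Mito overlapped. The call of COX6B-1 in otp90 was also lost without Mito otp90 replicate 1 or 3. COX6A had 23.7, 22.8 and 19.7 CPM in Mito otp90 and 37.7, 32.4 and 37.8 in Total otp90, well apart, at log2 fold changes of -0.66 in otp90 and -0.67 in WT.

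In the ATP synthase, 4 of 9 genes were lower in otp90 and 6 of 9 in WT, and none of the 3 genes of the catalytic beta subunit was called in either genotype. ATPbeta-1 (AT5G08670, chromosome 5, 2818091 to 2821251) had 134, 145 and 139 CPM in Mito otp90 and 121, 126 and 109 in Total otp90, and 133, 139 and 136 in Mito WT and 116, 147 and 133 in Total WT. Mito libraries were higher in otp90 and overlapped with Total in WT, with log2 fold changes of 0.27 in otp90 (SE 0.0952, edgeR quasi-likelihood adjusted p = 0.0503) and 0.06 in WT (SE 0.112, adjusted p = 0.712). ATPepsilon (AT1G51650, chromosome 1, 19152508 to 19154051), a small subunit of the central stalk, had 15.8, 13.04 and 14.2 CPM in Mito otp90 and 25.9, 23.98 and 24.8 in Total otp90. In WT it had 11.99, 15.6 and 13.6 CPM in Mito and 28.0, 29.3 and 26.0 in Total. The extracts were far apart in both genotypes, with log2 fold changes of -0.76 in otp90 (SE 0.094, edgeR quasi-likelihood adjusted p = 0.000785) and -1.004 in WT (SE 0.12, adjusted p = 0.00119). ATPgamma and ATPQ, subunits of the central and the peripheral stalk, stood between these, at -0.37 and -0.58 in otp90 and at -0.57 and -0.64 in WT. ATPdelta and OSCP, at -0.12 and -0.17 in otp90, did not pass there (edgeR adjusted p = 0.224 and 0.162), and passed in WT at -0.32 and -0.40. The call in WT held in 5 of 12 alternative fits for ATPdelta and in 10 of 12 for OSCP.

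**Figure D4:**
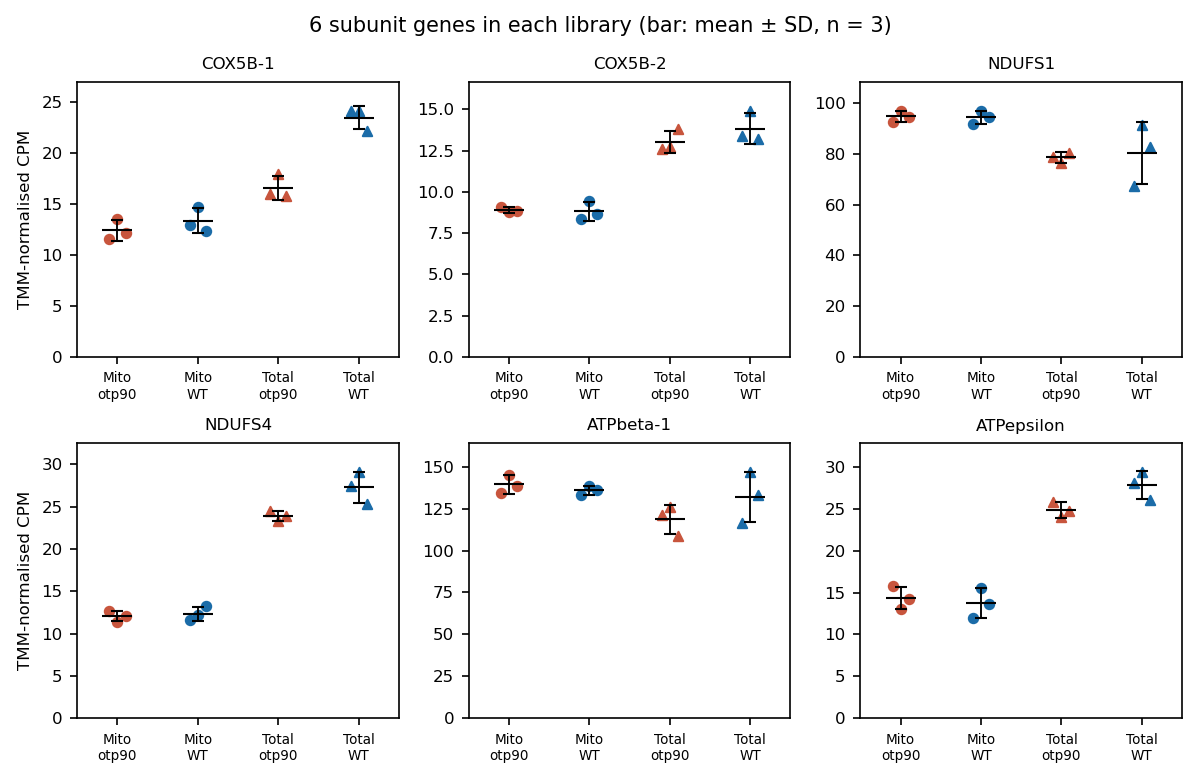
TMM-normalised CPM of 6 subunit genes in each library, with axes that start at 0; points are libraries (circles Mito, triangles Total, red otp90, blue WT), and bars are the mean and SD of 3 replicates. COX5B-1 is at 15.8 to 17.9 in Total otp90 and 22.2 to 24.1 in Total WT, while NDUFS4 and ATPepsilon are lower in Mito than in Total in both genotypes.

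The fold change of Mito over Total followed the length of the gene's exons. Over the 43 genes the Spearman correlation of fold change with exon length was 0.73 in otp90 and 0.75 in WT, and it was 0.70 and 0.72 over the 40 genes without the 3 ATPbeta copies. Over all nuclear genes tested it was 0.50 in otp90 (n = 16152) and 0.54 in WT (n = 16255). Over the other nuclear subunits of the same complexes it was 0.442 in otp90 and 0.437 in WT (n = 43 each). These are descriptions across genes measured in the same libraries, and genes are no replicates. The 9 genes under 1000 exon bases, among them NDUFS4 and ATPepsilon, had a median of -0.59 in otp90 and -0.72 in WT, where all nuclear genes of that length had -0.47 in otp90 and -0.51 in WT. The 11 genes of 2000 bases and over had a median of 0.02 in otp90 and -0.09 in WT, where all nuclear genes of that length had 0.30 in otp90 and 0.31 in WT. Beside genes of like length, the median of the 43 genes was therefore lower in each length class, including the classes between these. NDUFS1, with 2740 exon bases, was among the longest of the 43 genes.

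**Figure D5:**
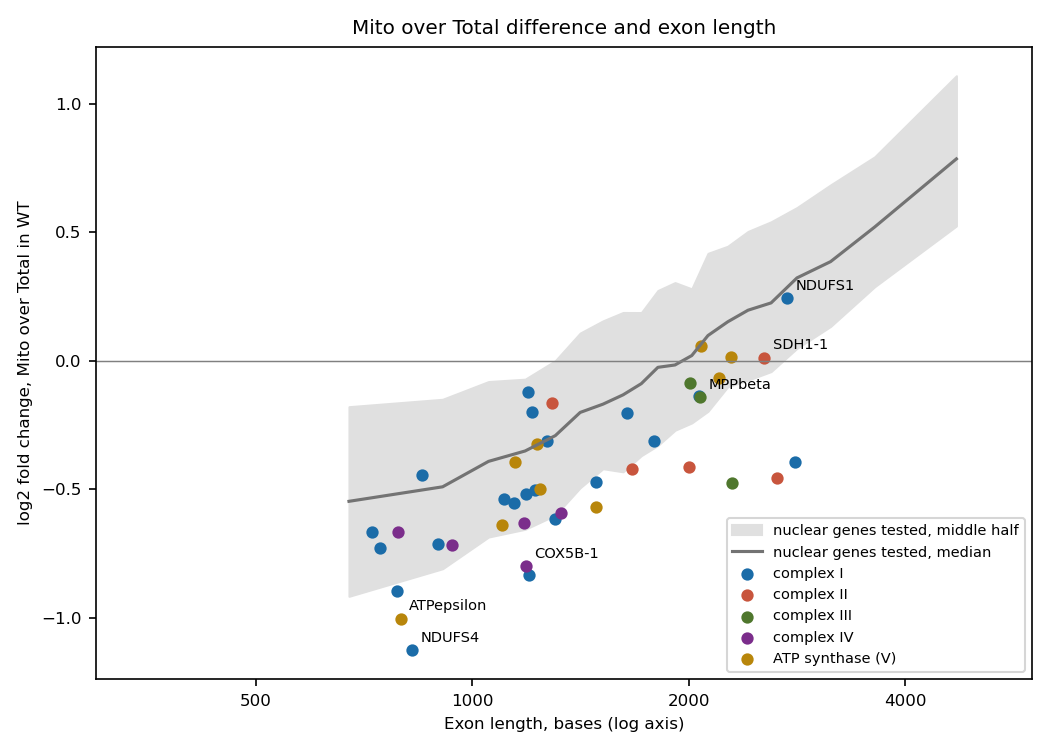
Log2 fold change of Mito over Total in WT against exon length in bases on a log axis, for the 43 genes by complex; the line and grey band are the median and the range between the quartiles of all nuclear genes tested, in 20 groups of equal size by length. Short genes such as NDUFS4 (-1.13) and ATPepsilon (-1.004) lie low and NDUFS1 (0.24) high, as the line does, and 38 of the 43 genes lie under the line.

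Markers of other tissues and cell types moved with the extract. The sum of 5 markers that are not of leaf was 38.2 to 43.3 CPM in Mito otp90 and 0.545 to 1.39 in Total otp90, and 27.4 to 35.2 in Mito WT and 0.595 to 0.919 in Total WT. Nearly all of it was PYK10, a root gene that reached 40.5 CPM, with up to 2.38 CPM for STM, 0.85 for AG, 0.481 for AP1 and 0.041 for the seed gene CRA1. STM and AP1 had 0 counts in 6 libraries each, and CRA1 in 7. SUC2 and KAT1, markers of phloem companion cells and guard cells, summed to 50.2 to 68.5 CPM in Mito otp90 and 94.2 to 111 in Total otp90, and to 49.5 to 57.3 in Mito WT and 86.9 to 107 in Total WT. The leaf markers summed to about 13700 CPM in each Mito otp90 library and 18800 to 23700 in Total otp90, and to 12700 to 13300 in Mito WT and 18100 to 25900 in Total WT. The part of these differences, and of exon length, in the Mito over Total result was not tested.

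The nuclear subunits that were not on the list of 43 moved the same way. Of 46 such genes 43 were tested, of which 35 were lower and 0 higher in Mito in otp90, and 42 were lower and 0 higher in WT. Their medians were -0.61 in otp90 and -0.76 in WT. The mitochondrial genome holds 25 gene records with 18 gene names for the same complexes (nad, cob, cox and atp), since some genes are split into pieces or present as copies. All 25 records were higher in Mito, with medians of 1.71 in otp90 and 1.37 in WT.

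Nuclear and mitochondrial partners of a complex were therefore in different proportion in the 4 groups. For complex I, the summed CPM of the 21 nuclear genes divided by that of 15 mitochondrial records, which carry 9 gene names, was 0.0459, 0.0435 and 0.0456 in Mito otp90 and 0.0666, 0.0832 and 0.0578 in Mito WT. In Total it was 0.173, 0.166 and 0.187 in otp90 and 0.235, 0.233 and 0.228 in WT. The otp90 libraries were lower than WT in both extracts, without overlap. No share over all genes was calculated for such a ratio. In Mito the mitochondrial records summed to 10470 ± 249 CPM in otp90 and 6867 ± 1101 in WT (SD, n = 3 each). The nuclear sums there were close, at 471 CPM in otp90 and 466 in WT. In Total the mitochondrial records summed to 3133 ± 155 CPM in otp90 and 2552 ± 92.4 in WT, and the nuclear genes to 548 and 592. For complex IV, with 5 nuclear genes and 3 mitochondrial records, the ratio was 0.0122, 0.0119 and 0.0104 in Mito otp90 and 0.0163, 0.0217 and 0.0138 in Mito WT, and 0.0496, 0.0485 and 0.0524 in Total otp90 and 0.0703, 0.0747 and 0.0632 in Total WT. These ratios depend on the genes summed and on the counting of reads with several positions, and only their difference between groups can be read. They were given no test. For otp90 over WT, 0 of the 25 mitochondrial records passed by edgeR in Mito (median 0.51, smallest adjusted p 0.0551). There 23 had an unadjusted edgeR p under 0.05, against 6.96% of all genes, and 19 passed by DESeq2, where 105 of all genes passed. In Total 0 passed by edgeR (median 0.24, smallest adjusted p 0.9996). There 8 had an unadjusted edgeR p under 0.05, against 2.98% of all genes, and 2 passed by DESeq2, where 18 of all genes passed.

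Several subunits are encoded by copies, and the share of each copy in their joint level per kilobase was compared over the groups. For COX5B, the 2 copies are 78.6% identical over aligned coding bases. COX5B-1 took 55.7%, 58.4% and 53.2% of the joint level in Total otp90, and 64.2%, 61.7% and 62.6% in Total WT, without overlap. In Mito it took 55.8%, 60.5% and 57.7% in otp90 and 60.7%, 60.8% and 58.6% in WT, with overlap. MPPalpha-1, 82.5% identical with MPPalpha-2, took 76.5% ± 0.57 in Mito otp90 and 80.4% ± 0.358 in Total otp90, and 75.7% ± 0.646 in Mito WT and 80.3% ± 1.41 in Total WT (SD, n = 3 each), so its share was lower in Mito in both genotypes.

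NDUFB10-1 was also lower in Mito, at 50.8% ± 0.842 in Mito otp90 and 54.4% ± 1.38 in Total otp90, and at 51.1% ± 2.36 in Mito WT and 57.4% ± 4.36 in Total WT (SD, n = 3 each), without overlap between extracts in either genotype. For NDUFS8, NDUFA13 and SDH2 the shares overlapped between extracts in otp90 and in WT, except for NDUFA13-2 in WT. NDUFS8-1, which carries iron-sulphur clusters near the quinone site, took 65.7% ± 2.54 in Mito otp90, 66.7% ± 1.64 in Mito WT, 64.8% ± 3.09 in Total otp90 and 65.6% ± 3.5 in Total WT (SD, n = 3 each). NDUFA13-2 took 69.1% to 71.7% on average over the 4 groups and SDH2-1 took 54.6% to 57.4%. The copies are 91.2%, 88.7%, 87.2% and 88.8% identical over aligned coding bases for NDUFS8, NDUFA13, SDH2 and NDUFB10 in that order, and shared no 75-base exon window.

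The 3 ATPbeta genes lie next to each other on chromosome 5, at 2818091 to 2821251 (ATPbeta-1, minus strand), 2821739 to 2825039 (ATPbeta-3, plus strand) and 2825661 to 2828806 (ATPbeta-2, plus strand). Over coding bases ATPbeta-1 is 94.4% identical to ATPbeta-2 and 91.0% to ATPbeta-3. A read can be told apart between copies only where they differ, so a coding stretch of read length is given. It was chosen among stretches that align without gaps and lie within an exon in all 3 copies. Of these it has the most differences from ATPbeta-1 when those of both other copies are added. Bases that differ from ATPbeta-1 are in capitals. Most of the differences in this stretch are in ATPbeta-3.
ATPbeta-1, chr5:2821011-2821085, minus strand: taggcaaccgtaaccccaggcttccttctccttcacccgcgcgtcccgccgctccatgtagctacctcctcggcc
ATPbeta-2, chr5:2825803-2825877, plus strand: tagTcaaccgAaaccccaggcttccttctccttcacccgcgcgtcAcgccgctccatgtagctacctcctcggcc
ATPbeta-3, chr5:2822065-2822139, plus strand: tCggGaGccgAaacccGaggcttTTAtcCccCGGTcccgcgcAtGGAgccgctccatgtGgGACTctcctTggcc
ATPbeta-2 differs from ATPbeta-1 at 3 of these 75 bases and ATPbeta-3 at 23. Elsewhere a stretch of the same length is identical in all 3 genes, so a read from it has an equal position in each.
shared by the 3 genes, in ATPbeta-1 at chr5:2818419-2818493, minus strand: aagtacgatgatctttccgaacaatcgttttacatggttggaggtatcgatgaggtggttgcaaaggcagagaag
Of the windows of 75 bases within an exon, 6.02% of ATPbeta-1, 7.09% of ATPbeta-2 and 4.81% of ATPbeta-3 occurred elsewhere in the genome. The share of ATPbeta-1 in the joint level per kilobase was slightly higher in Mito, without overlap between extracts in either genotype. It took 39.8% ± 0.302 in Mito otp90, 40.5% ± 0.95 in Mito WT, 38.0% ± 0.609 in Total otp90 and 38.9% ± 0.509 in Total WT (SD, n = 3 each). ATPbeta-3 took 20.1% to 21.1% of the joint level on average in the otp90 groups and 20.01% to 20.3% in the WT groups, so it was the lowest of the 3 copies in every group.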

How the data were processed

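RNA-seq was made from leaves in 12 libraries, 3 for each combination of genotype and extract, and groups were taken from the labels. The deposited values are raw read counts per gene, 1 table per library. Per the file headers and the study's methods, the authors aligned 75-base single-end stranded reads with STAR v2.7.0c to TAIR10 with the Col-0 mitochondrial chromosome, without introns and with every best position kept, and counted exons with featureCounts v1.6.3. With introns closed, a read across an exon junction can be placed in part or not at all, and a read with several equal positions was counted at each. Of the 75-base windows of the genes described, 49.3% (NDUFV2) to 100% (SDH4) lie within an exon; how far this lowered levels per kilobase was not tested.

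Counts were tested with edgeR 4.0.16 in R 4.3.3 (TMM, glmQLFit, glmQLFTest) on all genes over 1 CPM in 3 or more of the libraries fitted, adjusted by Benjamini-Hochberg with a threshold of 0.05. Each comparison used its own 6 libraries, and the interaction all 12. Standard errors were calculated back from the F statistic. DESeq2 1.42.0, other scalings, no filter, a replicate block, 1 fit over all libraries and leaving out each library were alternatives. Scripts were tested on simulated data. Replicate libraries differed by more than sampling noise (chi-square per degree of freedom 12.36 to 104.04). A floor of 3 counts per library equalled 0.0496 to 0.122 CPM and covers counting error only. All 43 genes had the same span in the reference TAIR10.1, from which sequences were read (RefSeq). A sequence that is withheld is not reported here.

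The genes and lists were chosen with earlier results of these data known. Named are, in each complex, the gene with the highest level per kilobase and those with the highest and the lowest Mito over Total fold change in WT, the copies, and the 2 smallest p-values in each otp90 comparison. NDUFV2, NDUFA12, GAMMA-CAL1, ATPgamma, ATPQ and the lists of calls were added after their values were seen. Replicate numbers are given in the labels. Same-numbered libraries deviated together in Mito (correlations of deviations 0.41, 0.388 and 0.111 over 16704 genes). In the other comparisons these correlations lay between -0.432 and 0.261, and not every pair was positive or above the limit used for pairing.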

Additional observations from a re-analysis of the deposited data

How the results depend on the processing

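For otp90 over WT and the interaction, the 41 alternative fits gave 0 calls, as did the reported fits. For Mito over Total, 23 of 24 alternative fits gave a count within 1.5 times the reported one. The exception was WT scaled by library size alone, with 7 of 43 genes (4 higher, 3 lower) in place of 30. In otp90 that scaling gave 18 in place of 27, but with 16 higher and 2 lower in place of 1 higher and 26 lower. It also turned the medians, to 0.124 in otp90 and 0.007 in WT, and the sign of 12 called genes in otp90 (COX6B-1 0.061, GAMMA-CA2 0.185, NDUFB10-2 0.183, MPPalpha-1 0.135, NDUFS8-1 0.048, NDUFA6 0.036, COX5B-1 0.079, SDH2-1 0.037, GAMMA-CAL2 0.124, MGP1 0.134, ATPgamma 0.085 and NDUFV2 0.026) and of 9 in WT (GAMMA-CA2 0.088, NDUFB10-2 0.015, SDH3-1 0.048, OSCP 0.084, ATPdelta 0.166, GAMMA-CA3 0.165, NDUFA6 0.039, SDH2-1 0.007 and NDUFA9 0.171), none of them past the threshold there. By its construction it gives plastid RNA more weight. Leaving out each library gave 18 to 29 calls in otp90 and 22 to 31 in WT, and 0 for otp90 over WT in Mito, in Total and for the interaction. Over all genes, 10 passed for otp90 over WT in Mito, against 105 by DESeq2, 95 without the filter, 221 with the replicate block, 19 with nuclear genes only and 1 with all 12 libraries in the fit. In Total 18 passed by DESeq2 and 3 with all 12 libraries, and for the interaction 6 by DESeq2, where the reported fits gave 0. Of the single genes, 87 of 732 alternative values lost their call with the same sign, and the cause was not tested. With the replicate block, 0 of 43 genes passed for otp90 over WT in Mito (smallest adjusted p 0.374) and 0 in Total, and 24 and 30 for Mito over Total in otp90 and WT. Of the counts without overlap between groups, an alternative added after seeing the data, 54 of 72 stayed within 1.5 times, and the others were counts under 10 or scaled by library size. At this depth all 43 genes were well above the floor.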
